A study of Mus musculus with 3 samples.

Results

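RMER1 elements are interspersed repeats of rodent genomes, present in many copies and sorted by repeat annotation into the subfamilies RMER1A, RMER1B and RMER1C. The annotation places them in a class called Other, apart from LINE, SINE and long terminal repeat (LTR) elements. Copies of one subfamily resemble each other in sequence, so a short read from one copy can match several places in the genome. Here they were followed in chromatin immunoprecipitation sequencing (ChIP-seq) for Seh1, a nucleoporin that belongs to the outer Nup107-160 scaffold of nuclear pores and to GATOR2, a regulator of mTORC1.

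Members were all peaks whose deposited annotation named class Other and a repeat beginning with RMER1. There were 247 of 21427 peaks over both lists, with 245 from the Seh1 immunoprecipitation and 2 from the IgG control. In both lists class Other held no repeat except RMER1A, RMER1B and RMER1C. The repeat label refers to the element at the centre of a peak. Of 6414 labelled Seh1 peaks, 6410 were classed as intron or intergenic and the rest, 1 member among them, carried no class. No labelled peak was classed as exon or promoter, so the absence of members there follows from the annotation.

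The cells were primary neural stem cells of wild-type mice, grown from cortex of newborn (P0) animals in growth medium with EGF and bFGF and taken while proliferating. The series has 3 libraries, 1 per group: Seh1 immunoprecipitation, IgG immunoprecipitation (an antibody without a chromatin target) and input chromatin, whose own values were not analysed here. The peak lists carry no expression values, so the cell type could not be checked against marker genes. With 1 library per group there was no replicate error. Every peak score was 0, and the read depth is unknown, so the width of a peak was its sole measured size. Intervals are 95% exact binomial (Clopper-Pearson) intervals and cover counting error only.

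RMER1B was the most frequent of the subfamilies under Seh1 peaks. It was at the centre of 145 of 16113 Seh1 peaks, a share of 0.900% (interval 0.760 to 1.06%), and of 2 of 5314 IgG peaks, a share of 0.0376% (0.00456 to 0.136%). RMER1A was at 75 Seh1 peaks, 0.465% (0.366 to 0.583%), and at 0 IgG peaks. The exact interval allows an IgG share of up to 0.0694%, and 3 counts would be 0.0565%. RMER1C was at 25 Seh1 peaks, 0.155% (0.100 to 0.229%), and at 0 IgG peaks, with the same limits. Each subfamily thus had a larger share of the Seh1 list than of the IgG list. The Seh1 members covered 75.4 kb in all, 1.58% of the sequence under Seh1 peaks, and the IgG members covered 0.531 kb, or 0.0321% of the sequence under IgG peaks.

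**Figure D1:**
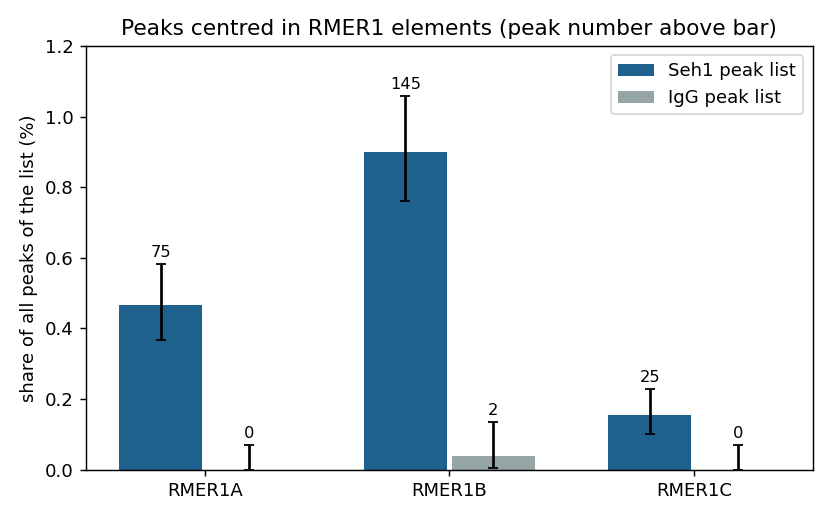
Share of all peaks of the Seh1 and the IgG list (y axis, %) whose centre lay in RMER1A, RMER1B or RMER1C; numbers above the bars are peaks and error bars are 95% exact binomial intervals. The Seh1 list held 75, 145 and 25 such peaks and the IgG list 0, 2 and 0.

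Expressed as a ratio of the share in the Seh1 list to that in the IgG list, RMER1B stood at 23.9 (95% interval 6.5 to 199). With 3 IgG peaks put in place of 0, the ratio would be 8.24 for RMER1A and 2.75 for RMER1C. These 2 values leave out the counting error of the Seh1 peaks and are not limits of a 95% interval. For comparison, the ratio was 1.77 (1.61 to 1.95) for LTR elements as a class, 1.42 (1.24 to 1.63) for SINE elements and 0.333 (0.311 to 0.356) for LINE elements. ERV1, an endogenous retrovirus family, had a ratio of 3.28 (2.15 to 5.23), and the B4 family of SINE elements had 2.11 (1.61 to 2.81). Among single repeat names, RLTR10-int stood above RMER1B, with 36.3 (110 Seh1 peaks and 1 IgG peak). RMER17B with 18.1 (55 and 1) and Lx2A1 with 12.5 (38 and 1) stood below it, inside its interval. RLTR10-int was inside the interval too. Among names with 25 or more Seh1 peaks, so were MTA_Mm-int with 9.70 (147 and 5) and RMER13A with 9.23 (28 and 1). G-rich with 8.57, and RLTR10C, RMER13A1 and GA-rich with 8.24 each, were the others. Except for RMER1B and MTA_Mm-int, each of these single-name ratios rested on 1 IgG peak. No test was made of these ratios, since RMER1 was singled out with the counts of both lists known.

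A total of 557 repeat names had at least 1 Seh1 peak, and 63 had 25 or more. RMER1C, with 25, just met this cutoff, which was set on Seh1 peaks alone. RMER1B was sixth of all names by number of Seh1 peaks, behind B4A (191 Seh1 peaks and 13 IgG peaks), B1_Mus2 (185 and 18), Lx (180 and 32), L1Md_F2 (173 and 188) and MTA_Mm-int (147 and 5). Of the 63 names, 12 had no IgG peak. Among these 12, RMER1A was second in number of Seh1 peaks, after the LTR element RLTR10 with 82, and was followed by RMER13B with 57. RMER1A and RMER1C therefore shared the absence of IgG peaks with 10 other names. Despite the shared prefix, RMER13B carries the class LTR in the annotation and was not counted as a member.

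**Figure D2:**
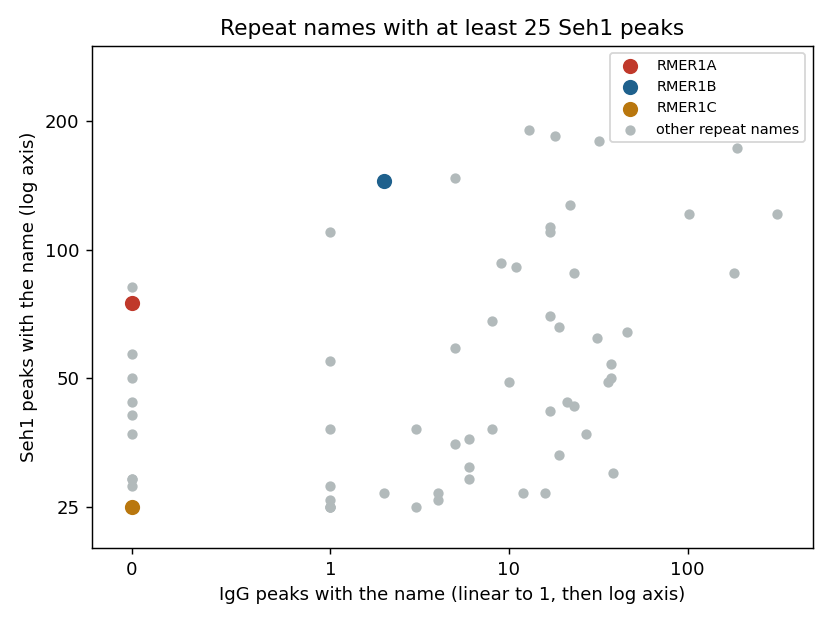
Number of Seh1 peaks (y axis, log scale) against number of IgG peaks (x axis, linear to 1 and logarithmic above) for the 63 repeat names with 25 or more Seh1 peaks, 1 point per name. RMER1A (75 and 0), RMER1B (145 and 2) and RMER1C (25 and 0) lie at the low end of the IgG axis.

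No Seh1 member overlapped an IgG peak by 1 bp or more. This was 0 of 245, for which the exact interval allows a share of up to 1.49%, and 3 counts would be 1.22%. Of all Seh1 peaks 0.372% overlapped an IgG peak, so a count of 0 sets the members apart little. None had an IgG peak with its centre within 1 kb either, with the same limits. Of the other Seh1 peaks with a repeat label, 50 of 6169 did (0.811%), a share below both limits. Within 100 kb the share was 28.2% (22.6 to 34.2%) for the members and 29.6% (28.4 to 30.7%) for the other labelled peaks, and the intervals overlapped. Of the members, 1 lay in the 14 bins of 1 Mb that held 20 or more IgG peaks. The share of other labelled peaks in these bins was not computed, so this count gives no comparison.

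Both IgG members were in RMER1B and intergenic. One was 295 bp wide. The other IgG member, 236 bp wide on chromosome 16 from 88580394 to 88580629, lay 17.3 kb upstream of Cldn8, a claudin of tight junctions. Its nearest Seh1 peak of any kind was 518 kb away.

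Seh1 members had a median width of 280 bp (95% interval of the median 268 to 288 bp), and the narrowest and widest measured 243 and 687 bp. The other labelled Seh1 peaks had a median of 263 bp (262 to 264 bp). Within the LTR class, peaks of the ERVK family had a median of 269 bp (266 to 272 bp), an interval that overlapped that of the members. The median was 279 bp for RMER1A (interval 257 to 308), 283 bp for RMER1B (268 to 290) and 256 bp for RMER1C (243 to 325). These 3 intervals overlapped. The smallest width of the Seh1 list, 243 bp, was found for 56 of 245 members (22.9%, interval 17.8 to 28.6%) and for 28.9% (27.8 to 30.1%) of the other labelled peaks. Over all labelled peaks the share was 28.7%. The difference did not pass after adjustment (adjusted p = 0.104 by Fisher's exact test, two-sided, over 12 tests; unadjusted p = 0.0435). Widths of 400 bp or more were found for 30 members (12.2%, 8.42 to 17.0%) and for 7.20% (6.56 to 7.87%) of other labelled peaks, a comparison made without a test.

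Among the subfamilies, RMER1C had 11 of 25 peaks at the smallest width (44%, interval 24.4 to 65.1%), RMER1A 15 of 75 (20%, 11.6 to 30.8%) and RMER1B 30 of 145 (20.7%, 14.4 to 28.2%). Neither difference from RMER1C passed (adjusted p = 0.0987 for RMER1A and 0.0900 for RMER1B by Fisher's exact test). With 25 peaks, RMER1C set the precision of these comparisons.

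**Figure D3:**
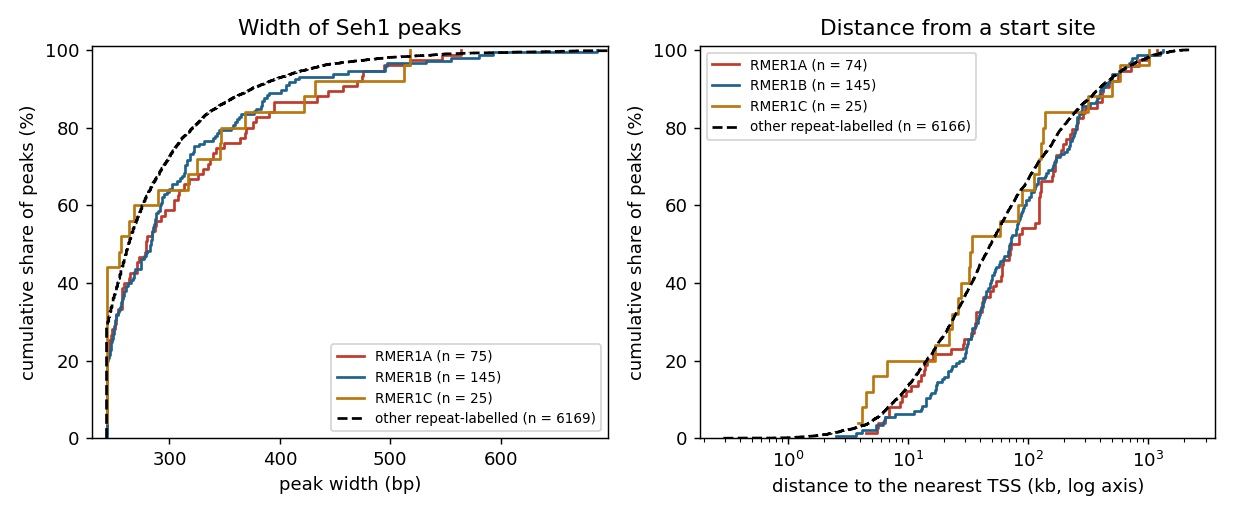
Cumulative share of Seh1 peaks (y axis, %) against peak width in bp (left) and distance to the nearest start site in kb on a log axis (right), for RMER1A, RMER1B, RMER1C and all other repeat-labelled Seh1 peaks; the width axis ends just above the widest member. The curve of RMER1C starts at 44% at the smallest width, against 20% for RMER1A and 28.9% for the other labelled peaks.

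Of the 10 widest members, 1 lay within 5 kb of a start site. The widest, 687 bp in RMER1B on chromosome 19 from 14171056 to 14171742, was intergenic and 252 kb downstream of the start of the olfactory receptor gene Olfr1505. The next, 593 bp in RMER1B on chromosome 3, was 1254 kb from the start of Rapgef2, a guanine nucleotide exchange factor for Rap. Next in width, 580 bp in RMER1B on chromosome 15 from 55181822 to 55182401, lay in intron 4 of 8 of Deptor, an inhibitor of mTOR, 48.7 kb downstream of its start. It had a Seh1 neighbour without a repeat label in the same gene, 2678 bp away and 434 bp wide.

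A member of 564 bp in RMER1A was 122 kb downstream of the start of Vegfc, which encodes a growth factor of lymphatic vessels. One of 555 bp in RMER1B was 463 kb downstream of the start of the zinc finger gene Zfp619. Another, of 547 bp in RMER1A, was 171 kb upstream of Glra2, a glycine receptor subunit. Upstream of Gpr139, an orphan G protein-coupled receptor, a member of 532 bp in RMER1B lay at 121 kb. Of 2 members of 518 bp, the one in RMER1C was 113 kb upstream of the noncoding gene Gm20125 and the one in RMER1A was 13.5 kb upstream of Flg2, a filaggrin family gene of skin. The tenth, 512 bp in RMER1C on chromosome 1 from 171507057 to 171507568, was the one near a start site, at 3.83 kb from that of Alyref2, of the Aly/REF family of mRNA export factors.

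Seh1 members were found in introns less often than other labelled Seh1 peaks. Of 244 members with a class, 52 were intronic (21.3%, interval 16.3 to 27.0%) and 192 were intergenic, against 1887 of 6166 intronic among the other labelled peaks (30.6%, 29.5 to 31.8%; adjusted p = 0.0206 by Fisher's exact test). Over all labelled peaks the share was 30.2%. The comparison depended on which repeats were set against the members. The share was 51.1% in SINE elements (adjusted p = 2.67e-17), 25.3% in LINE elements (adjusted p = 0.536) and 23.5% in LTR elements (adjusted p = 0.648, Fisher's exact test throughout), so the difference passed the test against SINE peaks and did not pass it against LINE or LTR peaks. Limited to peaks wider than 243 bp, the difference from all other labelled peaks also failed the test after adjustment (22.9% and 29.7%, adjusted p = 0.594 and unadjusted p = 0.0495 by Fisher's exact test). That adjustment still counted the tests of the smallest width, which could show no difference once such peaks were left out. Peaks of 1 library are not replicates, and these p-values describe this list alone.

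By subfamily, 16 of 74 RMER1A peaks (21.6%), 33 of 145 RMER1B peaks (22.8%) and 3 of 25 RMER1C peaks (12%) were intronic, and no pair passed the test (adjusted p from 0.536 to 1 by Fisher's exact test). The RMER1C introns belonged to Cep57, a centrosomal protein gene, to Cenpj, which encodes a centriole assembly protein, and to Ccdc171.

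The 52 intronic members fell in 51 annotated hosts. Mctp1, which encodes a calcium-binding membrane protein, held 2, of 406 and 249 bp, both in its first intron and both in RMER1B. In all, 17 members lay in intron 1 and 46 had a protein-coding host. Neither count was set against the other labelled intron peaks, so both describe the members only. One member was annotated to a transcript of Mir466f-1 on chromosome 19, outside the position of that gene in the RefSeq table, and its host is uncertain. The other 50 hosts had a median length of 233 kb (quartiles 102 and 496 kb). The hosts of other labelled intron peaks, counted once each, had a median of 99.7 kb (44.5 and 229 kb), and the median was 145 kb for LINE, 124 kb for LTR and 76.7 kb for SINE peaks. Hosts of 500 kb or more made up 13 of the 50 (26%) for the members and 8.94% for other labelled peaks. The share was 18.2% for LINE, 12.8% for LTR and 4.04% for SINE peaks. Counting each host once turned 51 member peaks into 50 hosts, and 1845 other labelled peaks into 1487. Genes with several peaks thus weigh less in the larger group, so the lengths are not compared like for like. These lengths are given as a description, without a test.

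Of the hosts, 6 were longer than 1000 kb, and they are named here by that limit, which was set after their values were seen. Lrp1b, a lipoprotein receptor family gene of 2058 kb, held an RMER1B peak of 279 bp in intron 1 of 90. Macrod2, a macrodomain gene of 1998 kb, held an RMER1A peak of 390 bp in intron 16 of 18. Dlg2, which encodes the postsynaptic scaffold PSD-93 and spans 1973 kb, held an RMER1B peak of 311 bp in intron 1 of 22. Dpp10, an accessory subunit of A-type potassium channels, held an RMER1A peak of 395 bp in intron 3 of 25. Gpc5, a glypican gene of 1433 kb, held an RMER1B peak of 285 bp in intron 2 of 7. Asic2, an acid-sensing ion channel gene of 1088 kb, held an RMER1A peak of 257 bp in intron 1 of 9.

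The median distance from the nearest start site was 70.8 kb for the members (95% interval of the median 54.3 to 87.8 kb) and 49.2 kb (46.7 to 51.5 kb) for the other labelled peaks. It was 78.7 kb (72.2 to 85.9 kb) for LINE, 53.7 kb (49.6 to 57.3 kb) for LTR and 25.5 kb (23.4 to 28.0 kb) for SINE peaks. The LINE and LTR intervals overlapped that of the members. Within 100 kb lay 145 of 244 members (59.4%, interval 53% to 65.6%) and 66.6% of the other labelled peaks, a difference that did not pass (adjusted p = 0.0900 by Fisher's exact test; 66.3% over all labelled peaks). Against SINE peaks, of which 86.0% lay within 100 kb, it passed (adjusted p = 8.53e-18, Fisher's exact test), and against LINE peaks, at 55.6%, the members had the higher share without passing (adjusted p = 0.536, Fisher's exact test). Upstream of the start site lay 130 members, and 114 (46.7%, 40.3 to 53.2%) lay downstream. Around the members a median of 5 protein-coding genes (quartiles 2 and 9) reached into 500 kb on either side, and 7 (3 and 13) around the other labelled peaks.

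Within 5 kb of a start site were 7 of 244 members (2.87%, 1.16 to 5.82%), against 4.33% (3.84 to 4.87%) of other labelled peaks. The nearest, 250 bp in RMER1B, was 2512 bp upstream of Tnmd, a gene of tendon cells. One of 257 bp in RMER1B was 3700 bp upstream of Ifna15, an interferon alpha gene, and one of 243 bp in RMER1B was 4171 bp upstream of Tm4sf20, a tetraspanin-like membrane protein gene. One of 245 bp in RMER1A was 4449 bp upstream of Klri1, a receptor gene of natural killer cells. The remaining 3 were in RMER1C: 4453 bp upstream of Sdhaf3, an assembly factor of mitochondrial succinate dehydrogenase, 3834 bp downstream of the start of Alyref2 and 4173 bp downstream of that of Cep57. RMER1C supplied 3 of the 7 peaks and 25 of all 245 members.

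Few Seh1 members lay close to each other, a spacing that was not compared with that of an equal number of other peaks. On the placed chromosomes 244 members fell in 226 bins of 1 Mb, of which 18 held 2 and none held more, and the median distance to the next member was 2.75 Mb. The closest pair was in RMER1C upstream of Sdhaf3 on chromosome 6, where peaks of 243 bp (6949200 to 6949442) and 317 bp (6951407 to 6951723) had centres 2244 bp apart. Another Seh1 peak of any kind lay within 10 kb of 27 members (11.0%), and of 16.7% of other labelled peaks. The nearest neighbour of these 27 carried no repeat label in 11 cases, a LINE label in 9, an LTR label in 5 and an RMER1C label in the pair at Sdhaf3.

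The nearest start site gave 243 members to 232 genes, 11 of which received 2 and none more. Besides Mctp1, Sdhaf3 and Dpp10 these were Xirp2, a striated muscle gene, Spopl, an adaptor of ubiquitin ligases, Fam92a, Hnrnpa1l2-ps2, described as a pseudogene but typed as protein-coding in the annotation, Timm8a1, which encodes a mitochondrial import protein, and the Y-linked Gm20822, Gm20867 and Ssty1. Off chromosome Y, the centres of a pair lay between 2.24 kb (Sdhaf3) and 584 kb (Dpp10) apart, and on Y between 4874 kb (Gm20822) and 25848 kb (Gm20867). Both Timm8a1 peaks lay on chromosome 10, whereas the RefSeq table places that gene elsewhere. In total 11 members had a start site off the gene of the same identifier in that table, 7 of them on chromosome Y, so their gene names are uncertain. Of 21779 protein-coding genes, 0.863% received a Seh1 member.

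Lists of genes for the study's subject were examined for members given to them or inside them. Of 22 p53 targets and CDK inhibitors, 1 had a Seh1 member: Cdkn2b, which encodes the inhibitor p15, 127 kb upstream of its start (RMER1A, 349 bp, chromosome 4 from 89437820 to 89438168, in intron 5 of 9 of the noncoding gene Gm12610). Cdkn1a, the gene of p21, had none. None of 14 genes of the Nup107-160 complex and GATOR2, of which 13 matched the table, had one. A Seh1 peak of any kind was given to 11 genes of the first list and 5 of the second, and to 31.5% of all protein-coding genes. Olfactory or vomeronasal receptor genes were given 4 of 243 members (1.65%, 0.450 to 4.16%) and 241 of all 16033 Seh1 peaks with a gene (1.5%), and numbered Zfp genes were given 2 members (0.823%, 0.0998 to 2.94%) and 1.15% of all Seh1 peaks.

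Members were found on all 21 placed chromosomes, and 1 lay on an unplaced contig. On the placed chromosomes other than Y they made up 3.73% of labelled Seh1 peaks (234 of 6278, interval 3.27 to 4.23%). On chromosome 14 the share was 6.06% (3.63 to 9.41%), on chromosome 3 it was 5.90% (3.77 to 8.72%), and on chromosome 8 it was 1.62% (0.529 to 3.75%). On chromosome Y the share was 8.62% (4.21 to 15.3%), 10 of 116 labelled peaks. All 10 were RMER1B, intergenic and between 243 and 345 bp wide, and RMER1B was the third by number among repeat names on Y, after L1Md_F with 22 and MURVY-int with 13. The mouse Y is built largely from repeated copies of long segments, and the handling of multiply mapped reads is not known, so these 10 peaks may not mark 10 separate sites. Without chromosome Y the intron share of the members was 22.2% and that of other labelled peaks 31.1% (adjusted p = 0.0455 by Fisher's exact test).

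**Figure D4:**
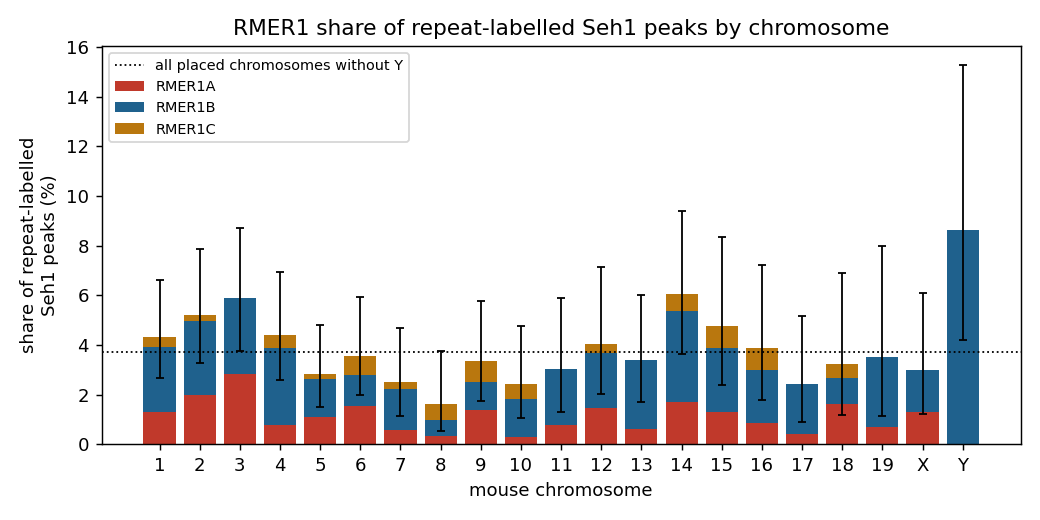
Share of repeat-labelled Seh1 peaks that lay in RMER1 elements (y axis, %) for each placed mouse chromosome, stacked by subfamily; error bars are 95% exact binomial intervals of the total and the dotted line is the share over the placed chromosomes without Y (3.73%). Chromosome Y, with 10 RMER1B peaks and no RMER1A or RMER1C peak, has the highest share at 8.62%.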

How the data were processed

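Per the file headers, the authors annotated each peak list with HOMER annotatePeaks.pl against mm10. The submitters' processing notes name Bowtie2 and HOMER without versions, and list the human builds hg18 and hg38. Since the headers name mm10, coordinates are given in mm10, 1-based. The peak caller, its threshold and any filter on multiply mapped reads are not given in these sources. Lists were made per library, and the deposited score was 0 for every peak.

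Members were matched on the deposited repeat label. Intron hosts were matched by transcript, and genes by identifier, to the RefSeq table of GRCm38.p6, the assembly of mm10. Shares were compared within the Seh1 list by Fisher's exact test (two-sided) in SciPy 1.17.1 (Python 3.11.15), with Benjamini-Hochberg adjustment over 12 tests at a threshold of 0.05: RMER1 against other labelled peaks, and each pair of subfamilies, for intron, smallest width and 100 kb from a start site. Members, gene lists and tests were chosen with earlier results of these data known. By rule, the genes named are the 10 widest members, those within 5 kb of a start site, genes given 2 or more members, the IgG members and those of gene lists; some of these results are not reported here. The RMER1C hosts and the hosts longer than 1000 kb were named after their values were seen. Alternatives changed the width, chromosomes, merging of neighbours, denominator, overlap and distance. No sequence is shown.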

Additional observations from a re-analysis of the deposited data

How the results depend on the processing

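Of 37 alternative values, 29 kept their direction and their side of the threshold or stayed inside the interval of the reported value. Some of these could not have changed. With 0 members overlapping an IgG peak, a stricter overlap or fewer chromosomes had to give 0 again. RMER1B alone left the IgG share as it was, since both IgG members are RMER1B. The median width was recomputed on 244 or 243 of the 245 members. The tally is therefore a description and no measure of robustness. The share of Seh1 peaks in RMER1 elements, 1.52%, was 3.82% of peaks with a repeat label and 0.900% for RMER1B alone, which follows from the change of denominator or of names. The intron share no longer passed among peaks wider than the smallest width (22.9%), or, at 21.3%, against LTR or LINE peaks. Against SINE peaks the share at the smallest width (22.9%; SINE 33.8%) and the share within 100 kb (59.4%) passed. The share within 100 kb reversed against LINE peaks (59.4%; LINE 55.6%) without passing. The causes were not tested. Comparisons with single repeat classes and without chromosome Y were chosen after seeing the data. No paired analysis was possible because each group has 1 library. Without read depth, a site absent from the IgG list may lie below its detection limit.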
